A study of Mus musculus with 3 samples.

Results

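The genes described here encode the glucose transporters, the enzymes of glycolysis, the steps that take pyruvate to lactate or into the mitochondrion, and the entry and exit of muscle glycogen. They were chosen by name, 40 of the 35562 genes in the series, and each was measured as the summed level of its transcripts in 3 myoblast lines. The lines, numbered 66, 67 and 72, form 1 condition (n = 3, 1 library each), carry the Dmdmdx mutation corrected by CRISPR/Cas9 and a Pax7-nGFP reporter, and were derived from mouse-mouse chimeras, with the cells sorted by FACS before sequencing. The chimeras were made by placing edited iPSCs into host blastocysts that carry a toxin gene, which Cre switches on in PAX7+ host cells after tamoxifen. The sample labels give neither the age of the animals nor the chimera and tamoxifen treatment of each line, and other cell types of the study were not analysed here. Every value therefore describes edited myoblasts alone, and spread between lines is the spread between 3 libraries.

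Glycolysis splits glucose into pyruvate and yields a small amount of ATP without oxygen. Most of its steps are served by several related genes, called paralogs, which differ by tissue, so that muscle, brain and liver each have preferred versions of the same enzyme. In muscle, the switch from dividing myoblasts to fibres is known for an exchange of broadly used versions for muscle versions, and pyruvate kinase changes by splicing from an M2 to an M1 form.

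The libraries held 73274315, 66972426 and 70272367 estimated counts. A count of 0 was read as up to 3 counts, and this limit covers counting error only. All 6 myoblast markers examined had a mean of at least 10 TPM (a transcript's share of the library, corrected for its length and scaled to 1000000), among them Pax7 at 136 to 154 TPM and Myod1 at 579 to 791 TPM. Markers of fibroblasts, erythrocytes, liver, brain, leukocytes and endothelium each had a mean under 1 TPM. Markers of differentiating muscle were present and differed by line, with a summed level of 1003 TPM in line 66, 1484 TPM in line 67 and 1755 TPM in line 72. In bulk RNA, fewer cells of a type and less RNA per cell cannot be told apart.

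The glycolysis and pyruvate genes ranged from among the most abundant transcripts of the cell to no reads at all. Of the 40 genes, 4 had a mean of at least 1000 TPM, 10 lay between 100 and 1000 TPM, 14 between 10 and 100 TPM, 8 between 1 and 10 TPM, and 4 below 1 TPM. Thus 28 of 40 (70.0%) reached a mean of 10 TPM, beside 33.0% of the 25510 genes detected in any line. The median level on the log2(TPM + 1) scale was 5.45 over the 40 genes and 0.88 over detected genes. Together they made up 1.39%, 1.47% and 1.52% of all TPM in lines 66, 67 and 72. Gapdh, Pkm, Eno1, Aldoa and Ldha alone held 75.6%, 74.9% and 75.9% of that sum, and stood at ranks 14, 45, 106, 116 and 179 among all genes.

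**Figure D1:**
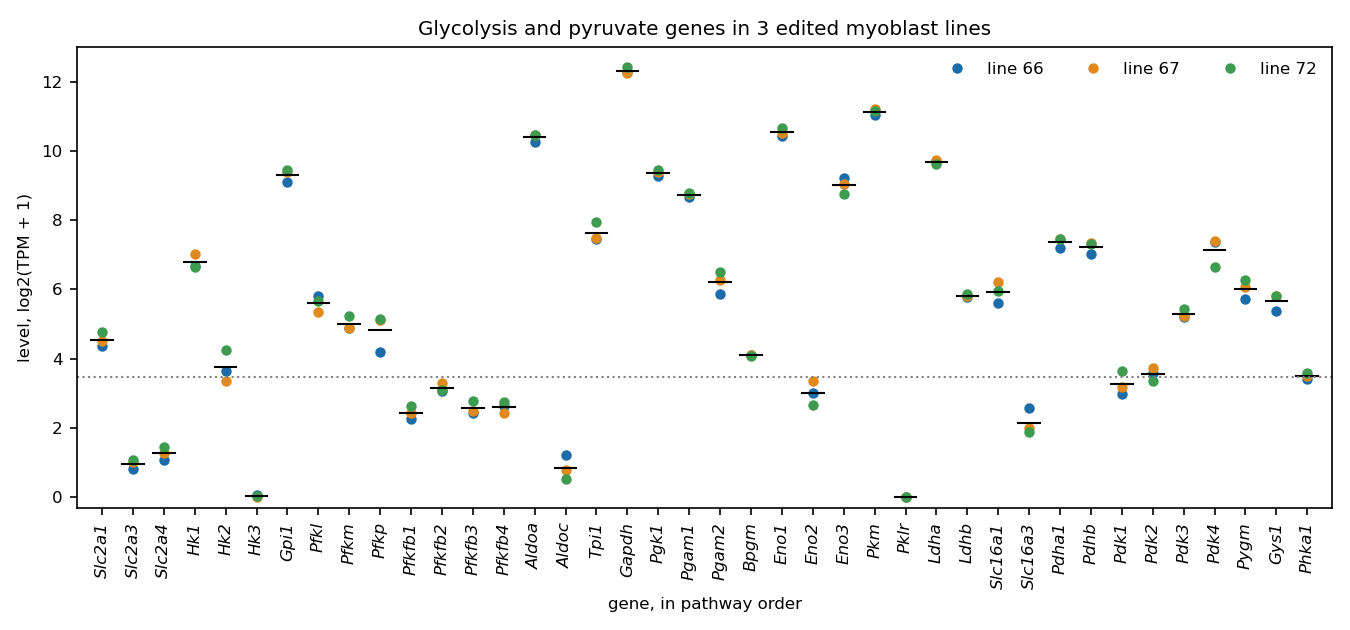
Level of each of the 40 genes as log2(TPM + 1), in pathway order from glucose transport to glycogen. Points are the 3 lines, the short bar is their mean and the dotted line is 10 TPM. Levels span from Pklr at 0 to Gapdh at a mean of 12.32, while the lines of most genes lie close together.

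In the order of mean levels, 18 of the 39 neighbouring pairs kept their order in 3 of 3 lines, and 21 did not. The ranges over lines overlapped in 29 pairs, 8 of which kept their order within every library. At the top, the pairs with no overlap were Gapdh above Pkm, Pkm above Eno1, Aldoa above Ldha, Ldha above Pgk1, and Pgam1 above Tpi1. Eno1 and Aldoa overlapped, with Eno1 higher in every line. Lower down, Hk1 stood apart from Pgam2, Slc2a1 from Bpgm, Slc16a3 from Slc2a4, Slc2a4 from Slc2a3, and Aldoc from Hk3. The direction of Slc2a4 over Slc2a3 was reversed in CPM, which has no correction for length, at a mean log2 difference of -0.011. That of Slc2a1 over Bpgm was reversed in every line on transcripts annotated as protein_coding, at 7.80 to 11.3 TPM beside 15.6 to 16.1 TPM.

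All pairs within 11 families of paralogs were compared inside each library, 31 pairs, and with them Pdha1 and Pdhb, the alpha and beta subunits of the PDH E1 enzyme, which are partners rather than paralogs. In 28 of these 32 pairs, 27 of them paralogs, the same gene was higher in 3 of 3 lines. An exact two-sided sign-flip permutation test over 3 lines cannot go below p = 0.25, which these 28 pairs reached (adjusted p = 0.286 by Benjamini-Hochberg over the 32 pairs), so no pair could pass a threshold of 0.05. Direction in every line and the size of the difference are therefore what these data can give. In 9 of the 11 families of paralogs a single gene held over 60% of the summed TPM.

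**Figure D2:**
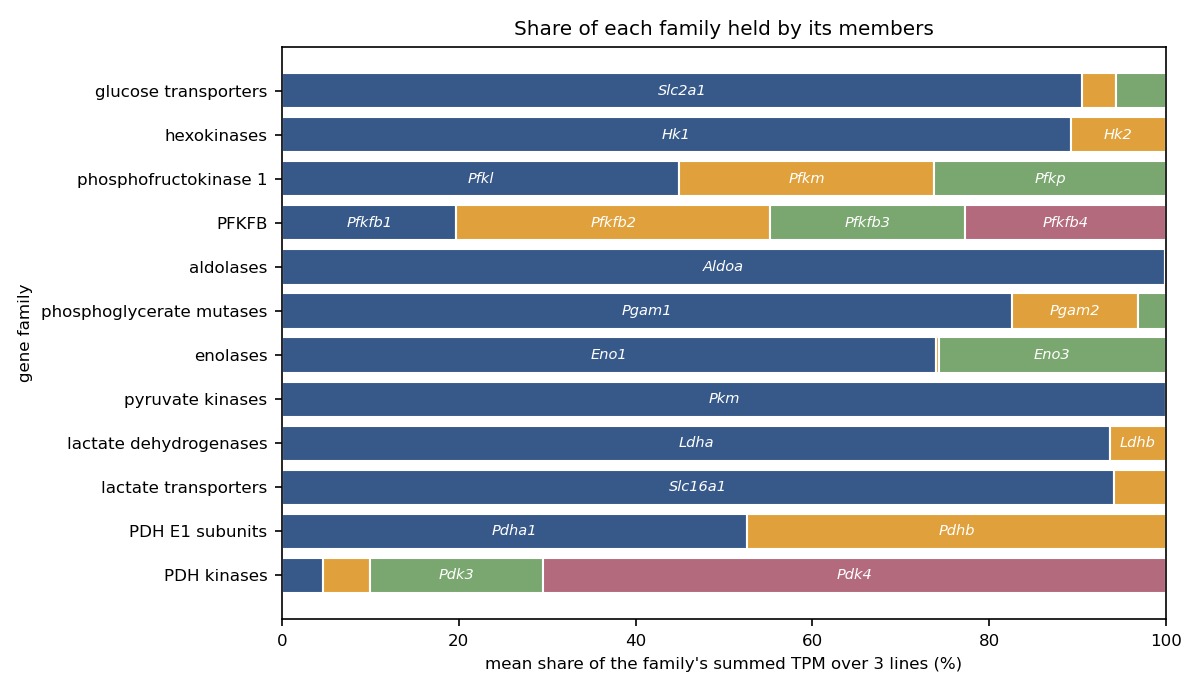
Mean share of the summed TPM held by each member over 3 lines, for 11 families of paralogs and the PDH E1 subunits, in percent, with labels on segments above 6%. Single genes fill most of the transporter, hexokinase, aldolase, mutase, enolase, pyruvate kinase, lactate and PDH kinase bars, whereas the phosphofructokinase 1, PFKFB and PDH E1 bars are divided.

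Among the glucose transporters the broadly used version led, and the muscle and neuronal versions were low. Slc2a1, which encodes GLUT1, the basal transporter of most dividing cells, was at 19.6, 21.8 and 26.2 TPM in lines 66, 67 and 72. Slc2a4 encodes GLUT4, the insulin-regulated transporter of muscle and fat, and was at 1.11, 1.40 and 1.73 TPM. Slc2a3 encodes GLUT3, known from neurons, and was at 0.75, 1.02 and 1.09 TPM. The range of Slc2a1 did not overlap that of either paralog, and it held 90.6% ± 0.71 (SD, n = 3) of the summed TPM. Slc2a1 exceeded Slc2a4 by 15.1- to 17.7-fold. Of the Slc2a1 signal, 58.4% ± 1.74 of the TPM and 48.8% of the estimated counts were assigned to Slc2a1-204, a transcript annotated as a target of nonsense-mediated decay. On protein_coding transcripts alone the difference was smaller, with Slc2a1 at 7.80, 9.18 and 11.3 TPM and Slc2a4 at 1.04, 1.23 and 1.64 TPM.

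Hexokinases trap glucose in the cell as glucose phosphate. Hk1, the version of brain and many other tissues, was at 102 TPM in line 66, 128 TPM in line 67 and 99.4 TPM in line 72. Hk2, the main hexokinase of adult skeletal muscle, was at 11.5, 9.28 and 18.2 TPM. Hk3, known from leukocytes, had 1, 0 and 2 estimated counts, at or under the limit of detection in every line. Hk1 was the higher of the pair in every line, but by 5.46-fold in line 72 and 13.8-fold in line 67, and its share of the family was 89.8%, 93.2% and 84.5%. The lowest Hk1 share fell together with the highest Hk2 level, both in line 72. Among Hk1 transcripts, Hk1-201 held 60.1% ± 1.03. It has 20 exons, including a 69-base exon that Hk1-202 and Hk1-205 lack, and these 18-exon transcripts held 22.0% ± 2.58 and 17.5% ± 3.72.

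Gpi1, which turns glucose phosphate into fructose phosphate, was at 551, 666 and 691 TPM, far above the hexokinases and phosphofructokinases on each side of it in the pathway. Only 40.2% of this signal was on transcripts annotated as protein coding, and 54.1% was on transcripts annotated for nonsense-mediated decay. These are short, and by estimated counts the order turned, with 63.7% ± 2.77 on protein_coding transcripts and 28.3% ± 2.51 on those for nonsense-mediated decay.

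In the phosphofructokinase family, which encodes the rate-setting enzyme of glycolysis, the summed TPM was divided among all 3 genes. Pfkl, the liver-type subunit, was at 55.6, 39.3 and 49.5 TPM. Pfkm, the muscle-type subunit, was at 28.6, 28.5 and 36.4 TPM, and Pfkp, the platelet-type subunit, was at 17.2, 33.8 and 34.2 TPM. Pfkl was highest in every line, with 54.8%, 38.7% and 41.2% of the summed TPM in lines 66, 67 and 72, a mean of 44.9% beside 28.9% for Pfkm and 26.2% for Pfkp. The order of the muscle and platelet types was not the same in the lines. Pfkm exceeded Pfkp by a log2(TPM + 1) difference of 0.70 in line 66 and 0.09 in line 72 and was lower by 0.24 in line 67, a mean difference of 0.18 ± 0.48 (SD, n = 3, exact p = 0.75). Line 66 stood apart here, with a Pfkp level well under those of lines 67 and 72, which lay together.

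The PFKFB enzymes make and break the sugar bisphosphate that switches phosphofructokinase on. All 4 genes were expressed at 3.80 to 8.83 TPM in each line. Pfkfb2, known from heart, was highest in every line at 7.45, 8.83 and 7.49 TPM. Pfkfb1, known from liver and muscle, lay at 3.80 to 5.16 TPM. Pfkfb3, induced in proliferating cells, lay at 4.39 to 5.87 TPM, and Pfkfb4, known from testis and tumours, at 4.34 to 5.74 TPM. Pfkfb1, Pfkfb3 and Pfkfb4 overlapped in range, with mean log2(TPM + 1) differences of 0.04 to 0.17 among them.

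The enzymes after phosphofructokinase carried the highest levels. Aldoa, the muscle and general aldolase, was at 1228, 1418 and 1415 TPM and held 99.9% of its family. Aldoc, the brain version, was at 1.35, 0.73 and 0.43 TPM, from 117, 32 and 31 estimated counts. Aldoc was highest in line 66, and the ratio of Aldoa to Aldoc ran from 911-fold in line 66 to 3326-fold in line 72. Of the brain markers, Syt1 was also highest in line 66, at 1.27 TPM beside 0.33 and 0.17 TPM, while Snap25 was lowest there, at 0.11 TPM beside 0.24 and 0.26 TPM. Their part in the Aldoc level was not tested.

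Tpi1, which interconverts the triose phosphates, was at 174, 177 and 244 TPM. Gapdh, the oxidizing step and a common reference gene, was at 4937, 4887 and 5495 TPM. Pgk1, the first ATP-yielding step, was at 622, 665 and 697 TPM. Gapdh and Pgk1 were within 1.12-fold between lines, whereas Tpi1 in line 72 was 1.40-fold above its lowest line. Gapdh transcripts could not be separated in detail: Gapdh-201 and Gapdh-202 are annotated with lengths of 1272 and 1273 bases, and Gapdh-201 was assigned 30.5, 156 and 553 TPM while Gapdh-202 stayed at 4208 to 4229 TPM.

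Among the phosphoglycerate mutases, the general version led and the muscle version was clearly present. Pgam1 was at 402, 435 and 440 TPM. Pgam2, the muscle subunit, was at 57.1, 76.2 and 89.9 TPM, and Bpgm, which makes the haemoglobin regulator bisphosphoglycerate in red cells, at 16.3, 16.2 and 15.9 TPM. Pgam1 was 7.04-fold above Pgam2 in line 66 and 4.90-fold above it in line 72, so the ratio moved with Pgam2, which was 1.57-fold apart between those lines. Bpgm was the steadiest of the 40 genes relative to its level, with a coefficient of variation of 1.5%, while the erythrocyte markers summed to no more than 0.144 TPM.

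Among the enolases, the general version led and the muscle version was abundant. Eno1, the general enolase, was at 1384, 1476 and 1616 TPM. Eno3, the muscle enolase, was at 591, 526 and 434 TPM, and Eno2, the neuronal enolase, at 7.0, 9.15 and 5.35 TPM. The shares were 73.9% for Eno1, 25.7% for Eno3 and 0.356% for Eno2. Line 66 had the highest Eno3 and the lowest Eno1 level, line 72 the reverse, and the ratio of Eno1 to Eno3 was 2.34, 2.81 and 3.73 in lines 66, 67 and 72.

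Pyruvate kinase makes pyruvate and ATP, and in these cells it came from Pkm alone. Pkm was at 2100, 2343 and 2259 TPM. Pklr, the liver and red cell gene, had 0 estimated counts in all 3 lines. With 3 counts per library placed on Pklr-204, at 338 bases the shortest listed Pklr transcript, Pkm was at least 5331-, 5421- and 5367-fold higher in lines 66, 67 and 72.

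Pkm lies at chr9:59656368-59679375 (GRCm38, plus strand) and carries a pair of exons of equal length of which a mature transcript holds only 1. They are shown because they are what separates the M1 and M2 enzymes. In the annotation each is exon 9 of 11 in its transcript, the M1-type exon of Pkm-202 at chr9:59675029-59675195 and the M2-type exon of Pkm-201 at chr9:59675568-59675734. Both are 167 bases long and are written 5′ to 3′ on the plus strand, with capitals marking the 64 positions at which they differ.
M1-type exon: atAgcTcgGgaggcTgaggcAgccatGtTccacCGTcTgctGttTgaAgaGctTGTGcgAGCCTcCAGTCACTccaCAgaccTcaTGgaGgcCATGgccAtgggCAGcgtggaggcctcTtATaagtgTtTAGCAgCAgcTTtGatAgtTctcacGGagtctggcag
M2-type exon: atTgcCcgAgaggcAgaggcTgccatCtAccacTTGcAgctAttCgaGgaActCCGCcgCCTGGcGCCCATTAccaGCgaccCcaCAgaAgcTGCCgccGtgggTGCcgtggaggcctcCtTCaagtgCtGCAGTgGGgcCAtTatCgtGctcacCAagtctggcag
The exons are 61.7% identical and share 0 of their 31-base words, so reads within them can be told apart. Levels were estimated for whole transcripts, of 2041 bases for Pkm-202 and 2432 for Pkm-201, so their split does not rest on these exons alone.

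M2-type transcripts exceeded M1-type transcripts in every line, and both were abundant. The M2-type transcript was at 1244, 1342 and 1273 TPM and the M1-type transcript at 363, 411 and 469 TPM in lines 66, 67 and 72. M2-type made up 77.4%, 76.5% and 73.1% of the sum of both, a mean of 75.7% ± 2.30 (SD, n = 3). The ranges did not overlap, and the log2(TPM + 1) difference was 1.64 ± 0.18 (higher in 3 of 3 lines, exact two-sided p = 0.25, the smallest that 3 lines allow). Line 72 had the smallest ratio of M2-type to M1-type, 2.71, beside 3.43 in line 66 and 3.26 in line 67. By estimated counts, without correction for length, the M2-type share was 80.7%, 79.9% and 76.9%.

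A further 22.9% to 25.2% of Pkm TPM belonged to transcripts that hold neither exon in full. Most of it was Pkm-210, a 5-exon fragment of 625 bases, at 410, 499 and 436 TPM, and by estimated counts the whole class was only 7.17% to 8.01% of the gene. A separate single-exon gene model on the same strand, Gm49759 (chr9:59672814-59676700), covers both exons and was at 56.0, 61.6 and 54.6 TPM. Adding all of it to the M1-type class would put the M2-type share at 74.8%, 73.9% and 70.8%, and adding all of it to the M2-type class at 78.2%, 77.3% and 73.9%.

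**Figure D3:**
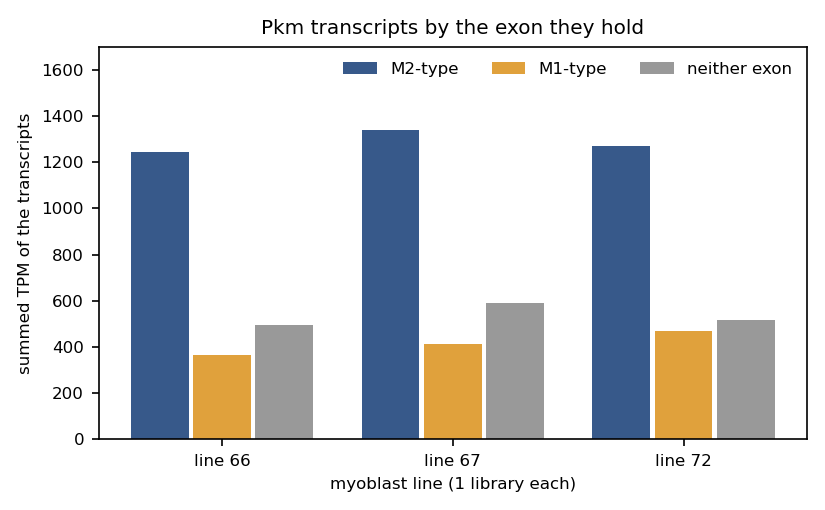
Summed TPM of Pkm transcripts that hold the M2-type exon, the M1-type exon or neither, in each line (1 library each, bars from 0). The M2-type bars stand at 1244 to 1342 TPM, the M1-type bars at 363 to 469 TPM, and the M1-type bar is tallest in line 72.

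The RNA-binding proteins known to set the choice between these exons were all expressed. Ptbp1, which favours the M2-type exon, was at 464, 323 and 336 TPM. Ptbp2, its neuronal relative, was at 61.3, 101 and 91.8 TPM. Ptbp1 was highest and Ptbp2 lowest in line 66, the line with the highest M2-type share. Between the other lines this did not hold. Line 67 had less Ptbp1 and more Ptbp2 than line 72 but the higher M2-type share, 76.5% beside 73.1%. Ptbp1 lies on chromosome 10, whose 427 genes averaging 10 TPM or more had a median shift of 0.28 in line 66 (log2(TPM + 1) in line 66 minus the mean of lines 67 and 72, with the all-gene median subtracted), beside 0.55 for Ptbp1. The other factors examined lay within 1.28-fold between lines: Hnrnpa1 and Hnrnpa2b1 at 1419 to 1931 TPM, Srsf3 at 342 to 358 TPM and Rbm4 at 40.3 to 51.7 TPM. Whether any of them has a part in the M2-type share was not tested.

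Lactate formation and export were each led by a single gene. Ldha, the subunit of muscle that favours lactate, was at 835, 851 and 786 TPM, and Ldhb, the heart subunit, at 53.8, 55.1 and 57.9 TPM. Ldha held 93.7% of their sum and exceeded Ldhb by 13.6- to 15.5-fold. Both were among the steadiest genes, within 1.08-fold between lines. Slc16a1, the broadly used lactate transporter MCT1, was at 48.1, 72.9 and 60.5 TPM, and Slc16a3, the glycolytic muscle transporter MCT4, at 4.93, 3.03 and 2.66 TPM. Line 66 had the lowest Slc16a1 and the highest Slc16a3 level, so their ratio was 9.76 there and 24.1 and 22.8 in lines 67 and 72. Bsg, the chaperone that both transporters need at the membrane, was at 541, 671 and 454 TPM.

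Pyruvate enters the citric acid cycle through pyruvate dehydrogenase. Pdha1 and Pdhb, which encode the subunits of its E1 enzyme, were at 145, 176 and 175 TPM and at 130, 159 and 157 TPM. Pdha1 exceeded Pdhb by 1.10- to 1.12-fold, with a log2(TPM + 1) difference of 0.15 ± 0.01, the smallest SD of the 32 pairs. Both were lowest in line 66.

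The 4 PDH kinases switch that enzyme off, and Pdk4 led them. Pdk4, known to rise with fasting and fat use in muscle, was at 164, 167 and 99.2 TPM. Pdk3 was at 35.6, 36.8 and 42.1 TPM, Pdk2 at 11.1, 12.1 and 9.13 TPM, and Pdk1, a hypoxia-responsive kinase, at 6.83, 8.04 and 11.4 TPM. Pdk4 held 70.4% of the summed TPM and Pdk3 19.6%. Line 72 had the lowest Pdk4 and the highest Pdk1 level, and there Pdk1 was above Pdk2, against the order in lines 66 and 67 (mean log2(TPM + 1) difference of Pdk2 over Pdk1 0.29 ± 0.51, exact p = 0.50). Transcripts annotated as protein_coding held 18.6% of the Pdk1 TPM and 42.7% ± 4.27 of its estimated counts. On these transcripts alone Pdk2 was above Pdk1 in every line, at 9.01 to 11.2 TPM beside 1.07 to 2.37 TPM.

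Glycogen genes of the muscle and of other types were present in every line. Pygm, the muscle phosphorylase that releases glucose phosphate from glycogen, was at 51.5, 66.3 and 75.9 TPM, of which 29.4%, or 5.27% of its estimated counts, was on short transcripts annotated with a retained intron. Gys1, the muscle glycogen synthase, was at 40.9, 54.8 and 55.1 TPM, and Phka1, a muscle subunit of phosphorylase kinase, at 9.69, 10.4 and 10.9 TPM. All 3 genes were lowest in line 66 and highest in line 72. Among the relatives outside the 40 genes, the brain phosphorylase Pygb was at 20.7 to 27.2 TPM in each line, whereas the liver forms Pygl and Gys2 reached at most 0.648 and 0.00934 TPM. For phosphorylase kinase, the liver type Phka2 was above Phka1 in every line at 12.8 to 15.8 TPM, and the muscle catalytic gene Phkg1 was at 0.645 to 0.747 TPM beside 32.3 to 33.3 TPM for Phkg2.

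Most of the genes that averaged 10 TPM or more differed by less than 1.5-fold between lines. Their median spread was still larger than that of all genes at that level. None of the 28 differed 2-fold or more between any 2 lines on the log2(TPM + 1) scale, beside 2.17% of all 8428 genes. At so small a share, none among 28 is no result about these genes. Pfkp (1.99-fold on the TPM scale) and Hk2 (1.96-fold) lay just under 2-fold. At 1.5-fold, 5 of 28 (17.9%) differed, Hk2, Pdk4, Pfkp, Pgam2 and Slc16a1, beside 9.03% of all genes. The median between-line SD on the log2(TPM + 1) scale was 0.18 for the 28 genes and 0.12 for all 8428. The median SD was 0.11 beside 0.08 without line 66, 0.19 beside 0.12 without line 67, and 0.11 beside 0.10 without line 72. Each line is a single library, so these differences between lines have no replicate and no test.

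The lines were not evenly placed. Line 66 was the lowest line for 18 of the 28 genes (64.3%), beside 47.7% of all 8428 genes, and line 72 the highest for 16 (57.1%), beside 45.7%. The 3 genes highest in line 66 were Bpgm, Eno3 and Pfkl, beside 28.1% of all genes. Line 67 was the lowest for 4 genes (Gapdh, Hk2, Pfkl and Pfkm), beside 32.7% of all genes, and the highest for 9, beside 26.2%. The 6 genes lowest in line 72 were Bpgm, Eno3, Hk1, Ldha, Pdk2 and Pdk4, beside 19.6% of all genes.

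To set genes beside their chromosomes, each shift was taken as the log2(TPM + 1) level in a line minus the mean of the other lines, and the median of all 8428 genes (-0.05 in line 66 and 0.06 in line 72) was then subtracted. On this scale the genes of chromosome 11 had a median shift of 0.32 in line 66 (699 genes) and those of chromosome 10 of 0.28 (427 genes), and the genes of chromosome 6 had a median shift of 0.15 in line 72 (398 genes). Chromosomes 10 and 11 were at -0.18 and -0.13 in line 72 and at -0.09 and -0.18 in line 67. The glycolysis genes on these chromosomes did not all follow. In line 66, Eno3 and Pdk2 on chromosome 11 were at 0.36 and 0.12 and Pgam2 at -0.47, and on chromosome 10 Pfkl was at 0.38 and Hk1 at -0.09. In line 72, Eno3, Pdk2 and Hk1 were at -0.42, -0.38 and -0.26, whereas Pgam2 was at 0.38 and Pfkl at 0.019. Also in line 72, Hk2, Tpi1, Gapdh and Ldhb on chromosome 6 were at 0.70, 0.41, 0.10 and 0.026, whereas Bpgm was at -0.10 and Pdk4 at -0.80. The part of these chromosome shifts in the level of any single gene was not tested.

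On the other chromosomes, the median of all genes was -0.02 in line 66 and 0.01 in line 72 on the same scale. The median over the 17 glycolysis genes there was -0.15 in line 66, with Ldha as the 1 gene above 0, and 0.07 in line 72, with 14 of 17 above 0. Before the median of all genes was subtracted, these medians were -0.21 and 0.13, with 1 and 16 of 17 genes above 0. The largest centred shifts of these 17 genes in line 66 were those of Pfkp at -0.89, Slc16a1 at -0.40, Pygm at -0.40 and Gys1 at -0.37.

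**Figure D4:**
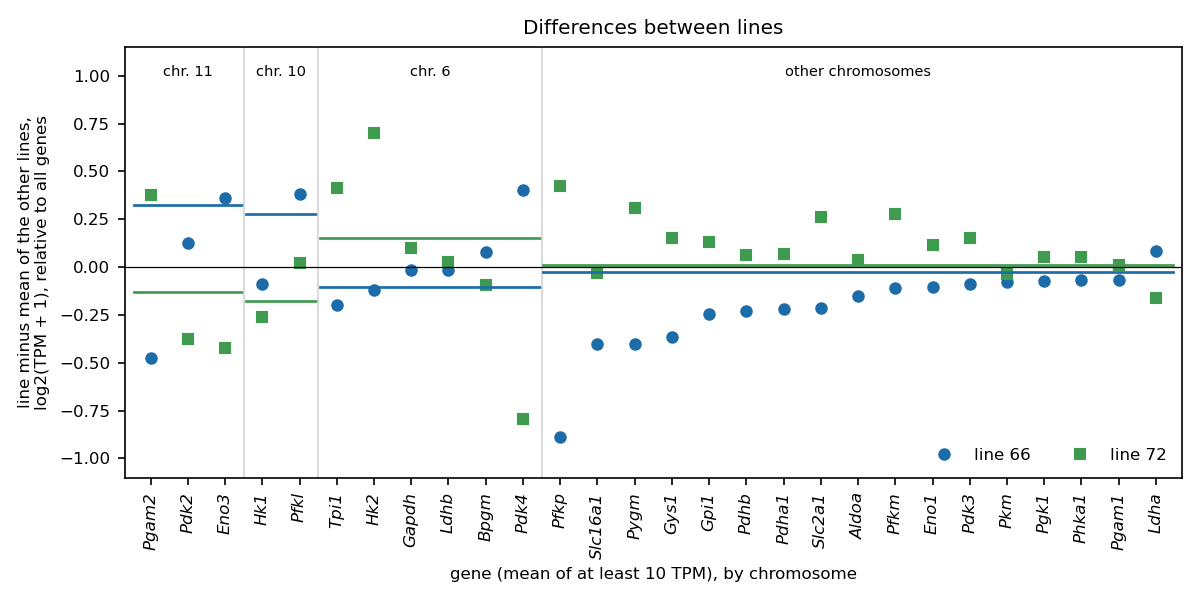
Difference of each line 66 (circles) and line 72 (squares) value from the mean of the other lines, in log2(TPM + 1) and relative to the median of all genes, for the 28 genes averaging 10 TPM or more, grouped by chromosome. Horizontal lines are the median shift of all genes of that chromosome group in the line of that colour. On the other chromosomes 16 of 17 genes lie below 0 in line 66, where the median of all genes is -0.02.

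The muscle-type genes were set beside the markers of differentiation and proliferation. Myog, the transcription factor of differentiation, was at 168, 222 and 310 TPM in lines 66, 67 and 72, embryonic myosin Myh3 at 204, 262 and 339 TPM, and skeletal actin Acta1 at 350, 486 and 588 TPM. This order of lines held for 5 of the 6 differentiation markers, the exception being fast troponin Tnnt3 at 208, 402 and 389 TPM. The proliferation markers Mki67, at 35.6, 64.1 and 54.3 TPM, and Top2a, at 156, 193 and 184 TPM, were also lowest in line 66 but highest in line 67. Pgam2 and Pygm had the order of the 5 markers, with the lowest level in line 66 and the highest in line 72. This order was common, held by 13 of the 28 genes averaging 10 TPM or more, among them the general versions Eno1, Pgam1 and Slc2a1, beside 29.4% of all 8428 genes. Eno3 and Bpgm had the opposite order, beside 11.7% of all genes, and Pdk4 was lowest in line 72. Under 10 TPM, Slc2a4 had the order of the 5 markers and Slc16a3 the opposite order. Pfkm and Hk2 were lowest in line 67 and highest in line 72. The M1-type share of Pkm was also highest in line 72. With 3 lines no correlation was computed, and the part of differentiation or proliferation in the level of these genes was not tested.

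**Figure D5:**
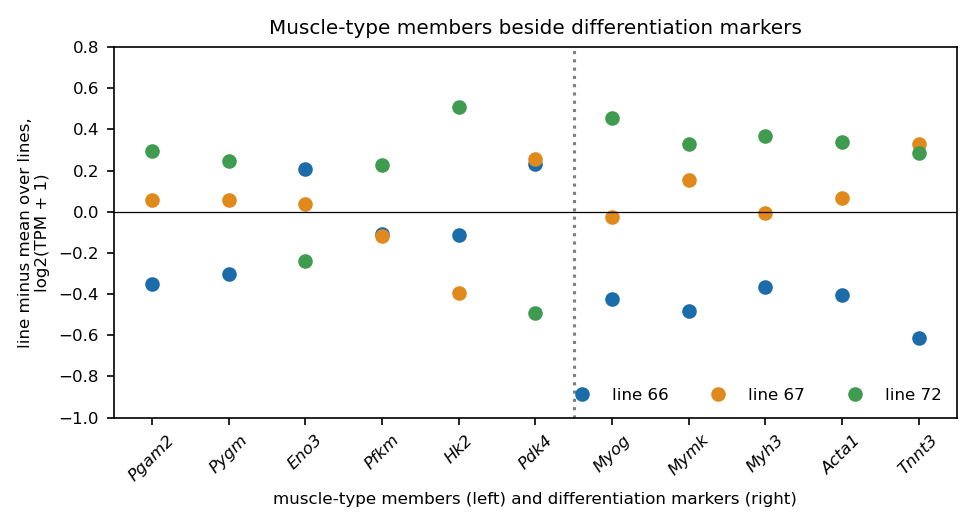
Level in each line minus the mean over lines, in log2(TPM + 1), for 6 muscle-type genes of carbohydrate use (left of the dotted line) and 5 markers of differentiating muscle (right). Line 66 is lowest for Pgam2, Pygm and the markers, while Eno3 is highest in line 66 and Pdk4 lowest in line 72. Pfkm and Hk2 are lowest in line 67.

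A further list of 53 genes of the surrounding pathways was read in the same lines. Of these, 28 had a mean of at least 10 TPM, 7 lay between 1 and 10 TPM and 18 below 1 TPM, of which 9 had no more than 3 estimated counts in every line. None of the 28 differed 2-fold between lines, which at a background of 2.17% is no result about them. Other subunits of pyruvate dehydrogenase, Dlat (73.2 to 97.8 TPM), Dld (133 to 175 TPM) and Pdhx (22.0 to 27.5 TPM), and the mitochondrial pyruvate carrier genes Mpc1 (33.9 to 46.2 TPM) and Mpc2 (61.9 to 78.9 TPM) were all expressed. Among genes of glucose synthesis, G6pc was at 0 TPM in all lines and Fbp1, Fbp2 and Pck1 at no more than 0.0746 TPM. The mitochondrial Pck2 was at 39.6 to 47.7 TPM, the broadly used phosphatase G6pc3 at 25.9 to 37.0 TPM and pyruvate carboxylase Pcx at 6.26 to 10.8 TPM. In the pentose phosphate pathway, which branches off after the hexokinases, Taldo1 was at 162 to 184 TPM and Pgd at 160 to 172 TPM, and Tkt was at 59.1 TPM in line 66 beside 31.7 and 32.6 TPM.

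Of 14 regulators, 9 had a mean of at least 10 TPM. Hif1a, the oxygen-sensitive activator of many glycolysis genes, was at 79.5, 78.1 and 93.9 TPM, and its relative Epas1 reached at most 0.409 TPM. Its known targets Vegfa (82.9 to 97.4 TPM) and Egln3 (53.6 to 65.5 TPM) were expressed, and Car9 reached at most 0.632 TPM. Txnip, an inhibitor of glucose uptake that follows glucose supply, was at 1.42, 2.97 and 5.84 TPM, and Ppargc1a, a driver of mitochondrial genes, at 4.51, 9.96 and 8.73 TPM. Both were lowest in line 66.

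The letters ACGTG, a form of the core that HIF1A binds, were searched on both strands of 300-base RefSeq promoters (GRCm38.p6). These promoters run from 250 bases before to 50 bases after a start. Other forms of the core were not searched, so a promoter without ACGTG may still hold a core. ACGTG also forms part of the E-box CACGTG, so a match does not separate the factors that use either. Of the 40 genes, 38 had a promoter in the table (not Slc2a3 and Slc2a4), and 20 of the 38 (52.6%) held the letters ACGTG in at least 1 promoter, beside 21.8% of 27025 genes. Among genes averaging 10 TPM or more the shares were 15 of 28 (53.6%) and 31.2% of 6728. Those with a match included Aldoa, Gapdh, Ldha, Pgk1, Pkm and Slc2a1, whereas Eno1, Eno3, Gpi1 and Pdk1 had none in this window. This is a description of letters and not of binding.

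How well reads could be assigned differed among the genes. In 34 of 40 genes over 95% of the 31-base words occurred in no other listed gene. The lowest were Eno1 at 72.1%, which shares words with its retrocopy Eno1b, and Gapdh at 75.7%, followed by Pfkfb2, Pkm, Pfkm and Aldoa at 82.9% to 90.7%. Eno1b was at 2.03, 0.85 and 0.57 TPM, under 1% of Eno1. The listed transcripts hold 3 of the 9943 processed pseudogene transcripts of the annotation, and 125 pseudogenes not analysed here share at least 100 words with Gapdh, so reads from those loci would be counted to Gapdh.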

How the data were processed

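Stranded, poly-A-selected RNA-seq libraries of 3 edited Dmdmdx; Pax7-nGFP myoblast lines were used, with the line as the replicate. For each transcript the authors deposited an estimated count, made by dividing each read among the transcripts it fits, and a TPM value, that count divided by effective length and scaled to 1000000 per library. The submitters' processing notes name bcl2fastq 2.20, fastp 0.20, kallisto 0.46.1 and build GRCm39. The annotation release and strand setting are not given in the sources used here. Splitting reads makes levels of near-identical transcripts uncertain.

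Transcript identifiers were matched to GENCODE M21 (GRCm38), which supplied names, biotypes, exons and the coordinates printed, since the deposited values carry none. It held 120686 of 121798 transcripts, and the 1112 others (0.493% to 0.535% of counts) were left out. TPM and estimated counts were summed per gene. A second gene identifier with the symbol Aldoa was left out. Levels were compared as log2(TPM + 1), which understates differences of low genes, between lines for genes averaging 10 TPM or more. Paralogs, the PDH E1 subunits, and M1- and M2-type Pkm transcripts, were compared within libraries by an exact sign-flip permutation test. Pkm transcripts were classed by the annotated exon they hold in full. The 40 genes, the further lists, the tests and the named genes (all members, with examples from the further lists) were chosen with earlier results of these data known. So were chromosomes 6, 10 and 11, and all other chromosomes were pooled. When 3 of 3 lines go the same way, this p-value is 0.25 whatever the spread, so it reflects agreement in direction. No source says that lines came from separate animals, so that agreement is between lines only.

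The alternatives were a pseudocount of 0.1, CPM in place of TPM, protein_coding transcripts only, retrocopies added to their parent gene, a filter at 1 TPM, edgeR TMM and DESeq2 scaling of the estimated counts, a fold of 1.5, and leaving out each line. The count of genes apart was tested on simulated data, which held counting error only. Of the changed genes compared, 0.51% were called at a 1.8-fold change, 99.0% at 2.2-fold and 100% at 4-fold, the last among 8397 genes compared, 193 of them changed. Scaling used edgeR 4.0.16 and DESeq2 1.42.0 in R 4.3.3, and all else used pandas 2.3.3 and numpy 2.4.6 in Python 3.11.15, with figures drawn in matplotlib 3.10.9.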

Additional observations from a re-analysis of the deposited data

How the results depend on the processing

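Of 195 recomputed differences between 2 genes of a family, 6 changed sign, in 4 pairs whose mean log2 difference was between 0.04 and 0.30. Slc2a4 minus Slc2a3 moved from 0.30 to -0.011 on the log2 scale with CPM in place of TPM. Pfkfb4 minus Pfkfb1 moved from 0.17 to -0.034 with protein_coding transcripts only. Pfkfb4 minus Pfkfb3 (0.04) moved to -0.37 with CPM and to -0.069 with protein_coding transcripts only, and lay between -0.051 and 0.090 when a line was left out, the lowest without line 66. Pfkm minus Pfkp (0.18) lay between -0.075 and 0.40, the lowest again without line 66. The cause of these changes was not tested. The other 28 pairs kept their direction with the other pseudocount, CPM and protein_coding transcripts. The M2-type minus M1-type difference of Pkm kept its direction, at 1.45 with Gm49759 added to the M1-type class (chosen after seeing the data) and 1.93 with CPM. No gene of the 28 was 2-fold apart under the other pseudocount, beside 2.38% of all genes, or under the other scalings, beside 2.12%. Nor was any of the 36 averaging at least 1 TPM at the lower filter, beside 4.05%. At such shares these counts are no result about the genes. At 1.5-fold, 5 of the 28 were apart, beside 9.03%. The median level of 5.45 moved to 5.62 under both TMM and DESeq2 scaling, which do not correct for length. Single levels moved by 1 SD or more in 55 of 120 values recomputed from all lines, 32 of 40 with CPM, and family shares in 24 of 66, 14 of 33 with CPM. Leaving out a line cannot move a mean of 3 that far. No paired analysis was possible because there is only 1 condition, so no replicate numbers are shared between groups, and pairing was limited to transcripts within a library.

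With 3 lines, the smallest p of the sign-flip test is 0.25, above the threshold of 0.05. Among the 40 genes, depth sets a limit for Hk3 and Pklr, which had no more than 2 estimated counts in any line, and among the 53 further pathway genes for the 9 with no more than 3. Values of single transcripts, Gapdh and Eno1 rest on how reads were divided among similar sequences, and the deposited values give no error for that step. Chimera and tamoxifen treatment cannot be told apart from other differences between the lines.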
